A study of Mus musculus with 4 samples.

Results

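The canonical Notch ligands and receptors of the mouse are 9 genes, and all 9 were found by symbol among the 24421 genes counted in cortical neural stem cells. They are 3 Delta-type ligands (Dll1, Dll3 and Dll4), 2 Jagged-type ligands (Jag1 and Jag2) and 4 receptors (Notch1 to Notch4). The cells came from the cerebral cortex at embryonic day 17 and were grown for 1 day in medium with basic FGF and EGF, each at 10 ng/ml. Poly(A) RNA was sequenced from 2 libraries of Prrc2b f/f cells, here called floxed control, and 2 libraries of Prrc2b f/f; Nestin-Cre cells, here called the libraries labelled knockout. Cells of either group carried Prrc2b alleles flanked by loxP sites. Those labelled knockout also carried Cre recombinase under regulatory sequence of Nes, a gene of neural progenitors, so that recombination is limited to cells that use this sequence and their progeny. The comparison asks how transcript levels differ when deletion of Prrc2b, which encodes a proline-rich coiled-coil protein, is induced in these progenitors.

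Notch signalling passes between touching cells. A ligand on a sending cell pulls on the receptor of its neighbour, ADAM proteases and then gamma-secretase cut the receptor, and the freed intracellular domain joins Rbpj in the nucleus and switches on repressors of the Hes and Hey families. In the developing cortex, cells that begin to differentiate present Delta-type ligands, and the neighbours that receive the signal remain radial glia or go on to form astrocytes. Jagged ligands bind the same receptors, and Fringe enzymes that add sugars to the receptors tune which ligand class signals well.

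Gene totals were 25936794 to 28263272 counts per library, and the 9 genes together held 19145 to 22105 of them. Levels are given in CPM, a gene's counts scaled to 1e6 counts of its library's gene total, where a floor of 3 counts stands for 0.106 to 0.116 CPM. Such a floor covers counting error only. Prrc2b itself stood at 587 and 593 CPM in floxed control and at 576 and 574 CPM in the libraries labelled knockout (log2 fold change -0.04 ± 0.02 SE, adjusted p = 0.134). The labels do not name the floxed exon, so a total over the whole gene does not check them. Ddx3y, Eif2s3y, Kdm5d and Uty, which lie on the Y chromosome, were counted in the floxed controls, at 6.79 to 24.4 CPM, and had 0 counts in the libraries labelled knockout, while Xist stood at 1611 to 1668 and 2124 to 2214 CPM. Sex composition and genotype therefore cannot be told apart in any difference below. The labels do not state whether the replicates are different embryos or cultures. The spread behind each p-value, SE and interval comes from 2 libraries a group. For each gene the fit drew it strongly toward the trend over all genes (prior degrees of freedom 34.3). That spread may be no more than technical.

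Promoter sequences of Dll1, Dll3 and Jag1, the 3 members with the largest changes, are shown first, as context for the genes the results turn on. Proneural factors such as Neurog2, which raise Delta transcription in differentiating progenitors, bind E-boxes, the motif CANNTG. RefSeq promoters on GRCm38.p6 cover 250 bases before and 50 bases after a start site, and 10 entries matched the 9 genes, 2 of them for Dll1. The form CAGCTG, which reads the same on either strand and is itself a case of CANNTG, was found in 3 entries, those of Dll3, Jag1 and the outer start of Dll1. The second Dll1 entry and the other 6 genes had none in this window. Of these 3 genes, Dll1 and Dll3 were higher and Jag1 lower in the libraries labelled knockout. Of all 32851 promoters, 16.3% hold CAGCTG and 72.3% hold CANNTG, which was found in 5 of the 10 entries. The Rbpj core TTCCCA, searched on both strands, was in 0 of the 10 entries and in 25.6% of all promoters. A match is a description of the sequence, not a bound site, and its relation to the changes was not tested. The 30-base windows around CAGCTG follow, 5′ to 3′ on the minus strand of GRCm38.p6, with the motif in capitals. They lie at chr17:15377047-15377076 for Dll1, chr7:28301775-28301804 for Dll3 and chr2:137116585-137116614 for Jag1.
Dll1: tgcattaccataCAGCTGagcgcacaaaga
Dll3: tccggcatccagCAGCTGcgactcctgaga
Jag1: ccgcgtttcatgCAGCTGatctgaaaggga
Counted from the start site at 0, the motif begins at -132 in Dll1, at -7 in Dll3 and at -82 in Jag1. For Dll1 the whole stretch of 250 bases before the outer start, chr17:15376933-15377182, holds 3 E-boxes, given in capitals. It lies outside annotated exons of Dll1, and exons of other genes were not compared. The other 2 motifs differ: all 250 bases before the Dll3 start lie in annotated Dll3 exon. The Jag1 motif lies within the annotated gene, which begins 124 bp before the start site used here.
Dll1 upstream: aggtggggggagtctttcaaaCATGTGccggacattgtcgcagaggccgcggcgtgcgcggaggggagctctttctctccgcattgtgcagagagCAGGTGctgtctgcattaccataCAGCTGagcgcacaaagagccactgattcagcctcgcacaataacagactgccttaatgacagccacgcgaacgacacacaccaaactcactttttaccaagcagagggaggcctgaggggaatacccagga

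Of the 9 genes, Dll1, Dll3 and Notch1 were higher and Jag1 and Notch2 lower in the libraries labelled knockout, while Dll4, Jag2, Notch3 and Notch4 did not pass the threshold (edgeR quasi-likelihood test, adjusted p under 0.05 over 15012 genes). All 9 passed the filter on low counts. The 5 of 9 stand against a background of 33.1% of all genes tested, 15.1% higher and 18.1% lower, a balance that upper quartile scaling turned from 2263 higher and 2711 lower to 2939 and 2288. The 5 differ widely in size. Against a 1.2-fold change, a test that 6.92% of all genes passed, Dll1, Dll3 and Jag1 passed and the other 6 did not. The members' median absolute log2 fold change was 0.31, beside 0.12 over all genes tested. With 9 members this median is the value of Dll4 alone, a gene of low counts that did not pass the threshold. Control and knockout values were fully separated for 7 of the 9 genes, Dll4 and Jag2 being the exceptions, against 65.1% of all genes.

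**Figure D1:**
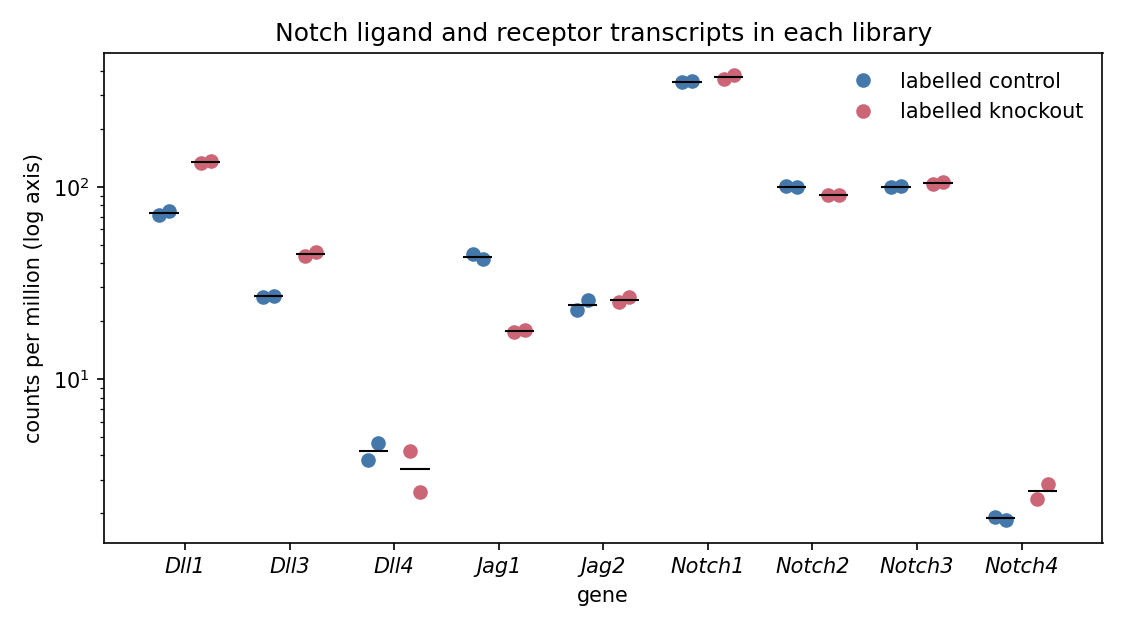
CPM of each of the 9 genes (log axis) in the 4 libraries, 1 point a library, with a black line at the mean of each group. Dll1 and Dll3 sit higher and Jag1 lower in the libraries labelled knockout, and the points of Dll4 and of Jag2 overlap between groups.

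Among the Delta-type ligands, Dll1, the principal ligand that activates Notch on neighbouring cells in the embryonic cortex, rose most. It stood at 71.6 and 74.9 CPM in floxed control and at 132 and 136 CPM in those labelled knockout. The lowest library labelled knockout thus lay far above the highest control. The ratio was 1.82 (95% interval 1.73 to 1.92; log2 fold change 0.87 ± 0.04, adjusted p = 3.6e-21), a larger absolute log2 change than in all but 4.05% of genes tested.

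Dll3, a divergent Delta protein that is held largely inside the cell and does not activate receptors on neighbours, also rose. It was counted at 26.7 and 27.0 CPM in floxed control and at 43.4 and 45.6 CPM in the libraries labelled knockout, with no overlap. The ratio was 1.65 (95% interval 1.52 to 1.78; log2 fold change 0.72 ± 0.06, adjusted p = 1.6e-13). The count of Dll1 for each count of Dll3 was 2.68 and 2.77 in control and 3.05 and 2.99 in the libraries labelled knockout. Between the groups this count ratio changed by a factor of 1.11. The exact two-sided permutation p of this ratio was 0.333, the smallest that 2 against 2 libraries allow.

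Dll4, the Delta ligand of sprouting endothelium and of some neural progenitors, was scarce, at 3.77 and 4.67 CPM in floxed control and 4.22 and 2.58 CPM in the libraries labelled knockout. These are 100, 132, 119 and 67 counts. The groups overlapped, and the 95% interval of the ratio was 0.627 to 1.04 (log2 fold change -0.31 ± 0.18, adjusted p = 0.193). Without knockout replicate 1 the value was -0.72 and passed (adjusted p = 0.0104; the 14 alternatives gave 0.0104 to 1), and without knockout replicate 2 it was -0.01, so the libraries labelled knockout decide the call. The 13 endothelial markers summed to 27.5 to 29.2 CPM in control and 22.4 to 24.4 CPM in the other group. Of these, 2 were higher, 2 lower and 7 not past the threshold among 11 tested (median 0.13). Over all genes tested, 15.1% were higher and 18.1% lower. Flt1 was lower (-1.50 ± 0.12), from a mean of 11.9 to 4.23 CPM, a larger fall than that of the sum. Cdh5 was lower as well (-1.24 ± 0.25), from a mean of 2.40 to 1.02 CPM. Kdr (0.79 ± 0.18) and Slco1a4 (2.31 ± 0.43) were higher, while Pecam1 (0.09 ± 0.19) and Cldn5 (0.35 ± 0.29) did not pass. Tek, at 7 to 12 counts a library, was not tested. The part of endothelial cells in the values of Dll4 and Notch4 was not tested.

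Jag1, a Jagged ligand found in radial glia, astrocytes and vessel walls, moved the other way and farther than any other member. Floxed controls held 44.5 and 41.9 CPM, and the libraries labelled knockout 17.6 and 17.97 CPM. Each library labelled knockout was below either control by more than the spread within a group. The ratio was 0.41 (95% interval 0.376 to 0.447; log2 fold change -1.29 ± 0.06, adjusted p = 1.5e-19), and 1.95% of genes tested had a larger absolute log2 change.

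Its relative Jag2 was counted at 22.95 and 25.7 CPM in floxed control and at 25.1 and 26.7 CPM in those labelled knockout. The groups overlapped, and the 95% interval of the ratio, 0.962 to 1.16, does not hold a fall of the size seen for Jag1 (log2 fold change 0.08 ± 0.07, adjusted p = 0.391). Jag1 counts for each Jag2 count were 1.94 and 1.63 in control and 0.70 and 0.673 in the libraries labelled knockout. The ratio passed from above to below 1, and the order of both genes per length, given below, turned the same way.

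**Figure D2:**
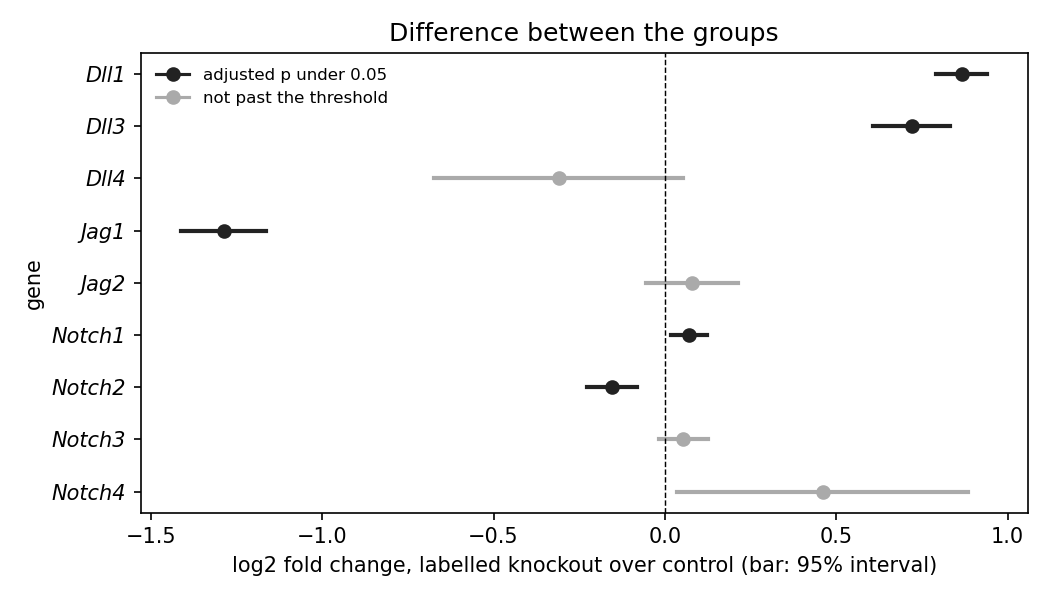
Log2 fold change of each gene, libraries labelled knockout over floxed control, with its 95% interval from the quasi-likelihood fit. Dark points passed an adjusted p of 0.05; Dll1 (0.87), Dll3 (0.72) and Jag1 (-1.29) lie far from 0, whereas Notch1 (0.07), Notch2 (-0.15) and Notch3 (0.05) lie near it.

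Ratios taken within a library do not depend on scaling. The counts of the 3 Delta-type ligands summed to 1.51 and 1.58 times those of the 2 Jagged-type ligands in floxed control. In the libraries labelled knockout the same ratio was 4.21 and 4.13. The change was 2.7-fold (log2 difference 1.43), and the groups did not overlap (exact two-sided permutation test, p = 0.333, the smallest possible with 2 against 2). For Dll1 against Jag1 alone, the ratio was 1.61 and 1.79 in control and 7.53 and 7.59 in the libraries labelled knockout, a 4.45-fold difference. Dll3 against Jag2 gave 1.16 and 1.05 in control and 1.73 and 1.71 in the other group.

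Notch1, Notch2 and Notch3 had smaller absolute log2 fold changes than Dll1, Dll3 and Jag1, and the wide interval of Notch4 holds the ratios of Dll1 and Dll3. Notch1, a main receptor of cortical progenitors, stood at 351 and 354 CPM in floxed control and at 364 and 380.4 CPM in those labelled knockout. The groups did not overlap, but the ratio was only 1.05 (95% interval 1.01 to 1.09; log2 fold change 0.07 ± 0.03, adjusted p = 0.0313). That call was lost with DESeq2 (adjusted p = 0.164), with no low-count filter (0.078), without control replicate 1 (0.0962) and without knockout replicate 2 (0.44), where the log2 value fell to 0.04. Over 14 alternatives its adjusted p ranged from 0.00275 to 1, the highest in the test against a 1.2-fold change.

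Notch2, a second receptor of radial glia, was lower, at 101 and 99.6 CPM in floxed control against 91.1 and 90.1 CPM. The groups did not overlap, and the ratio was 0.899 (95% interval 0.854 to 0.946; log2 fold change -0.15 ± 0.04, adjusted p = 0.00089). Notch3, which neural progenitors and the mural cells of vessels use, was at 99.6 and 101 CPM in floxed control and at 104 and 106 CPM in the libraries labelled knockout. It did not pass (0.05 ± 0.04, adjusted p = 0.255; 95% interval of the ratio 0.988 to 1.09). Counts of Notch2 for each count of Notch3 were 1.01 and 0.986 in control and 0.88 and 0.851 in the libraries labelled knockout.

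Notch4, known mainly from endothelium, was near the lower end of what these libraries measure. It had 51 and 52 counts in floxed control (1.93 and 1.84 CPM) and 67 and 74 in the libraries labelled knockout (2.38 and 2.85 CPM). The groups did not overlap and the interval of the ratio was wide, 1.03 to 1.85 (log2 fold change 0.46 ± 0.21, adjusted p = 0.0893).

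Levels of different genes were compared per length, as CPM per kilobase of annotated exon. In floxed control the order was Notch1 (24.8 ± 0.178, SD, n = 2), Dll1 (17.4 ± 0.558), Notch3 (12.4 ± 0.119), Dll3 (9.43 ± 0.076), Notch2 (9.31 ± 0.0999), Jag1 (7.41 ± 0.312), Jag2 (3.49 ± 0.281), Dll4 (1.10 ± 0.164) and Notch4 (0.234 ± 0.0075). Dll3 and Notch2 lay within their summed spread of each other, and the other neighbours were farther apart than that. In the libraries labelled knockout Dll1 came first at 31.9 ± 0.661, followed by Notch1 (26.2 ± 0.823), Dll3 (15.6 ± 0.55), Notch3 (12.95 ± 0.196), Notch2 (8.40 ± 0.0664), Jag2 (3.72 ± 0.157), Jag1 (3.05 ± 0.0463), Dll4 (0.883 ± 0.3) and Notch4 (0.324 ± 0.0419). The first place depends on the length used: over the longest transcript Notch1 (39.2) stayed above Dll1 (37.5) there. With coding length, Dll3 and Notch3 changed places in the controls.

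**Figure D3:**
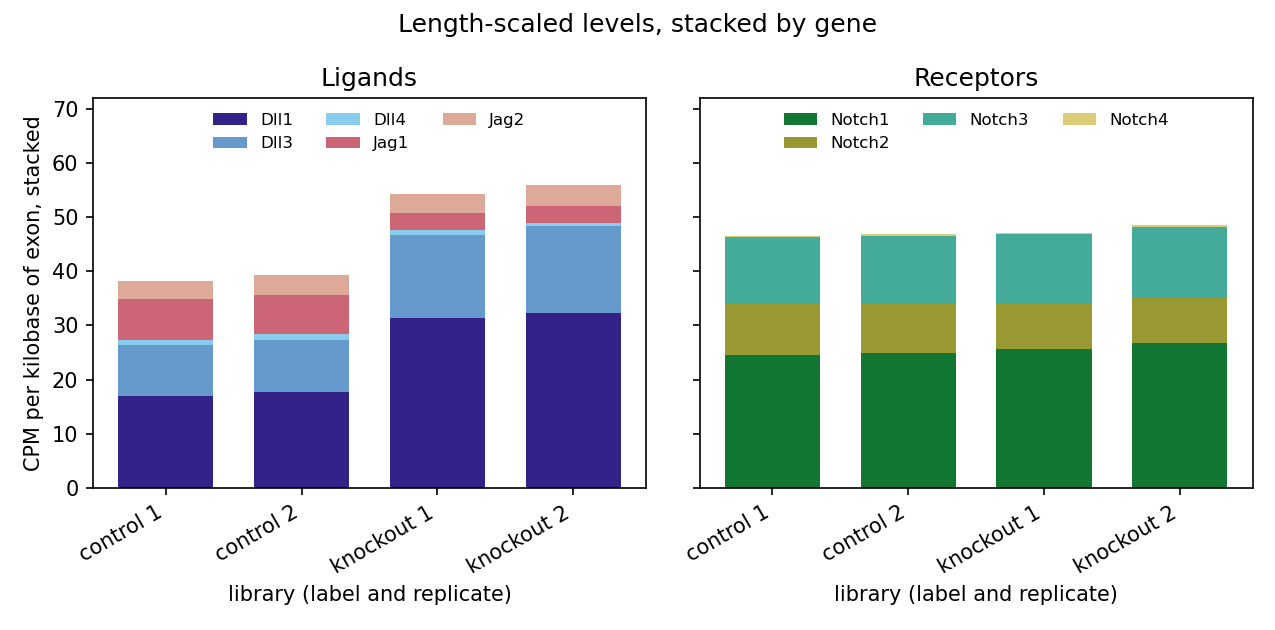
CPM per kilobase of exon, stacked by gene, for the 5 ligands (left) and the 4 receptors (right) in each library. The ligand stacks are taller in the libraries labelled knockout, with more Dll1 and Dll3 and less Jag1, and the receptor stacks are of nearly even height and make-up.

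On the same scale the 5 ligands summed to 38.3 and 39.3 in floxed control and to 54.3 and 55.9 in the libraries labelled knockout. The receptors summed to 46.6 and 46.8 in control and to 47.1 and 48.5 in the other group. Dll1 made up 44.4% and 45.1% of the ligand sum in control and 57.7% and 57.8% in the libraries labelled knockout. The share of Jag1 went from 19.9% and 18.3% to 5.55% and 5.51%. Within the receptor sum, Notch1 held 52.9% and 53.1% in control and 54.3% and 55.1% in the libraries labelled knockout, and Notch2 went from 20.1% and 19.7% to 17.9% and 17.2%. These are descriptions of composition, with no test.

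The genes lie on 5 chromosomes in mm10. Dll1 spans 15367354 to 15376872 on the minus strand of chromosome 17 and has 11 exons in its longest coding transcript. Dll3 spans 28293553 to 28302238 on the minus strand of chromosome 7, with 9 exons. Jag1 spans 137081456 to 137116644 on the minus strand of chromosome 2, with 26 exons. Notch1 (26457903 to 26516663, minus strand) and Dll4 (119325784 to 119335962, plus strand) share chromosome 2, and Notch3 (32120820 to 32166852, minus strand) and Notch4 (34564268 to 34588503, plus strand) share chromosome 17. Jag2 lies on chromosome 12 (112907819 to 112929776, minus strand) and Notch2 on chromosome 3 (98013527 to 98150361, plus strand). The nearest protein-coding genes of the 3 ligands that moved most differed much less than the ligands did. Those of Dll1, Fam120b (log2 fold change 0.11 ± 0.05, adjusted p = 0.0633) and Ermard (0.14 ± 0.10, adjusted p = 0.281), did not pass, nor did those of Jag1, Slx4ip (-0.05 ± 0.11, adjusted p = 0.787) and Btbd3 (-0.03 ± 0.05, adjusted p = 0.730). Timm50, which begins 3278 bp from Dll3, was slightly higher (0.13 ± 0.04, adjusted p = 0.0142), and Selenov, on its other side, has no value here. Beside the receptors, Sec16a near Notch1 (-0.09 ± 0.03, adjusted p = 0.0338) and Rrp1b near Notch3 (-0.13 ± 0.04, adjusted p = 0.0141) were lower, and Gpsm3, which begins 1303 bp from Notch4 and averaged 0.488 and 1.00 CPM in the groups, was higher (1.00 ± 0.37, adjusted p = 0.0342). An annotated RNA on the opposite strand, A930024N18Rik, overlaps 867 bp of Dll1 exon, and similar RNAs overlap 214 bp of Dll4, 488 bp of Notch3 and up to 1068 bp of Notch1. The libraries keep strand, but no source names the strand option of the counting, so reads from these stretches cannot be told apart between the partners.

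Other genes of the pathway moved in both directions. Of 74 tested genes in 6 lists, each gene counted once, 18 were higher, 19 lower and 37 not past the threshold, against 15.1% higher and 18.1% lower of all genes tested. Their median log2 fold change was -0.02 beside 0.0047 over all genes, and the median absolute value 0.123 beside 0.117. Upper quartile scaling gave 22 higher and 14 lower. Of 10 genes for receptor cleavage, 4 fell and 3 rose (median -0.02). The ectodomain-cutting proteases Adam10 (-0.24 ± 0.03, adjusted p = 2.5e-07) and Adam17 (-0.20 ± 0.04, adjusted p = 2.2e-05) fell with Furin (-0.22 ± 0.04), the convertase that matures the receptor. Among gamma-secretase subunit genes Aph1b rose (0.21 ± 0.05), as did its near-identical copy Aph1c (0.52 ± 0.14). No source used here states how reads matching both copies were counted, so either value is uncertain. Of 9 glycosylation genes 2 rose and 0 fell (median -0.06). These were Poglut1, which adds glucose to receptor EGF repeats (0.17 ± 0.04), and Mfng, a Fringe (0.23 ± 0.09, adjusted p = 0.0473). Lfng, another Fringe, was at 129 ± 4.3 and 122 ± 0.239 CPM and did not pass (adjusted p = 0.0575). Xxylt1, a xylosyltransferase gene, did not pass either (-0.12 ± 0.06, adjusted p = 0.0969).

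Of 16 genes for ubiquitination and endocytosis, 5 fell and 1 rose (median -0.04), beside 15.1% higher and 18.1% lower of all genes tested. Mib1, whose ubiquitin ligase makes Delta and Jagged ligands competent to signal, fell from 76.0 ± 4.04 to 65.7 ± 0.288 CPM (-0.22 ± 0.04, adjusted p = 9.0e-05). Aak1, a kinase of clathrin endocytosis (-0.22 ± 0.03), and the endocytic adaptor gene Epn2 (-0.07 ± 0.03) were lower, and Neurl1b, a Neuralized ubiquitin ligase, was higher (0.24 ± 0.04). Of 16 genes of the nuclear complex, 4 rose and 1 fell (median -0.02), beside the same shares of all genes. Those that rose include the corepressor gene Spen (0.31 ± 0.03) and Bend6 (0.41 ± 0.05), whose protein opposes Notch targets in neural cells. Rbpj itself fell slightly, from 102 ± 2.35 to 93.3 ± 0.934 CPM (-0.13 ± 0.04, adjusted p = 0.0043).

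Of 13 genes listed as targets, 4 rose and 6 fell (median -0.03), beside 15.1% higher and 18.1% lower of all genes tested. The targets did not move as a block. Hes5, a repressor directly switched on by Notch, rose from 33.4 ± 2.06 to 62.3 ± 6.75 CPM (0.89 ± 0.06, adjusted p = 1.5e-15). The feedback inhibitor gene Nrarp rose from 42.2 ± 1.2 to 58.4 ± 1.32 CPM (0.46 ± 0.05). Gfap, the astrocyte filament gene, fell (-1.42 ± 0.02), as did the cyclin gene Ccnd1 (-0.62 ± 0.02). Id4 (-0.46 ± 0.07), Sox9 (-0.25 ± 0.03) and Myc (-0.17 ± 0.04) were lower too, and Nfia was higher (0.16 ± 0.03). Hes1 rose by a smaller step than Hes5 (0.15 ± 0.05, adjusted p = 0.0213) and Hey1 fell (-0.12 ± 0.04, adjusted p = 0.0292). The part of Notch signalling in the values of these targets was not tested. Of 11 tested non-canonical ligands and relatives, 5 rose and 3 fell (median 0.19). The neuronal genes Cntn1 (0.26 ± 0.03) and Dner (0.19 ± 0.03) were higher, and Megf10 (-0.33 ± 0.04) and the microfibril gene Mfap2 (-0.28 ± 0.05) were lower.

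**Figure D4:**
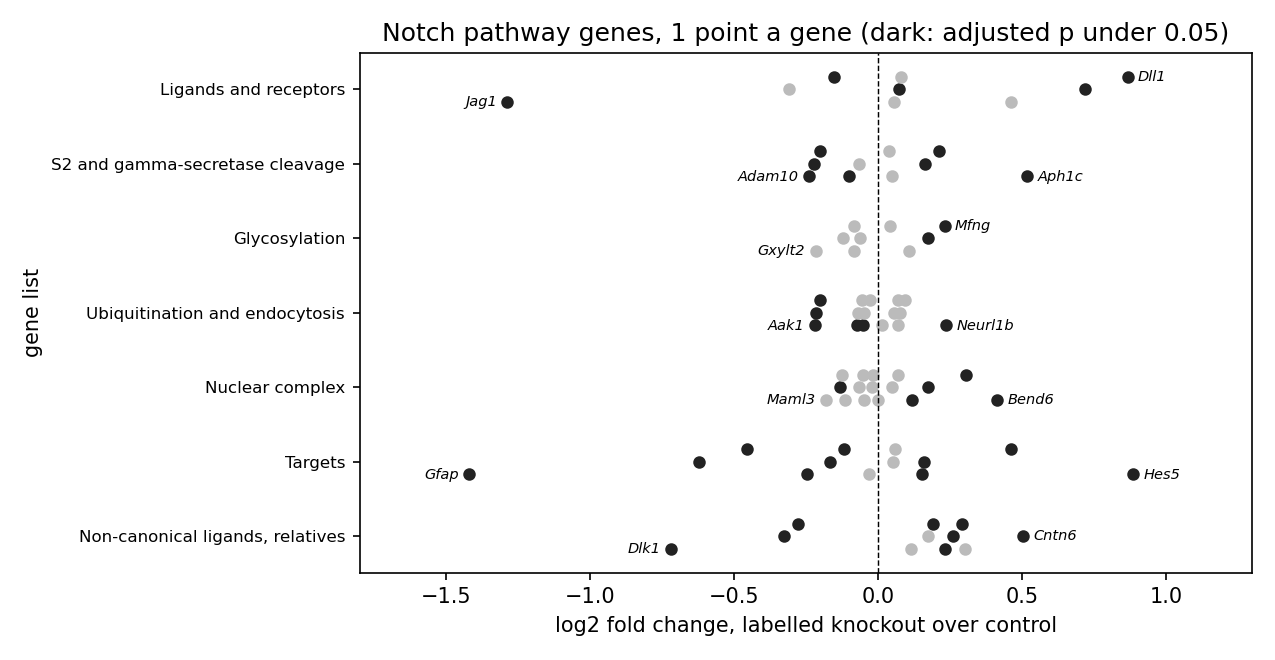
Log2 fold change of every tested gene of the 6 pathway lists and of the 9 ligands and receptors, 1 point a gene, with the highest and lowest of each row named. Dark points passed an adjusted p of 0.05; Jag1, Dll1 and Dll3 lie farther out than any gene of the cleavage, glycosylation, ubiquitination and nuclear lists, while among targets Gfap (-1.42) lies beyond Jag1 and Hes5 (0.89) beyond Dll1 (0.87), and Dlk1 (-0.72) lies as far out as Dll3.

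Some cell type markers moved in the same libraries as the ligands. The counts below stand beside 15.1% higher and 18.1% lower of all genes tested. In bulk RNA, fewer cells of a type and less RNA per cell cannot be told apart. Markers of intermediate progenitors and proneural cells were higher for 10 of 13 tested genes and lower for 1, with Mfng counted here as well (median 0.22), with a summed level of 796 to 812 CPM in control and 899 to 902 CPM in the libraries labelled knockout. Examples are Neurog2 (0.55 ± 0.12), Hes6 (0.29 ± 0.04) and Btg2 (0.28 ± 0.03), all smaller steps than those of Dll1 and Dll3. Gadd45g was lower (-0.19 ± 0.05), and Eomes and Neurod4 did not pass. Neurog1 was at or under 1 count in every library. Of 11 oligodendrocyte precursor genes 6 rose and 1 fell (median 0.17, summed level 3143 to 3152 and 3366 to 3375.5 CPM). Sox8 (0.69 ± 0.03), Gpr17 (0.72 ± 0.05), Cspg4 (0.49 ± 0.04) and Bcas1 (0.49 ± 0.05) were among those that rose. Olig2 fell (-0.14 ± 0.03), and Pdgfra, Nkx2-2, Lhfpl3 and Ptprz1 did not pass. Of 9 cortical neuron genes 5 rose and 0 fell (median 0.13; 2243 to 2245 and 2575 to 2591 CPM), for example Stmn2 (0.40 ± 0.02). The part of these cell types in the values of Dll1 and Dll3 was not tested.

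Radial glial, astrocyte and mural marker lists held more genes lower than higher, beside 15.1% higher and 18.1% lower of all genes tested. Of 11 radial glial genes 7 fell and 0 rose (median -0.25; summed level 9952 to 10041 and 8457 to 8483 CPM), among them Tnc (-0.65 ± 0.02), Vim (-0.31 ± 0.02) and Slc1a3 (-0.36 ± 0.02). Of 9 astrocyte genes 6 fell and 2 rose (median -0.29; 3268 to 3286 and 2391 to 2392 CPM), with Aqp4 at -0.62 ± 0.03 and Fgfr3 at 0.59 ± 0.03. Of 13 mural cell and fibroblast genes 8 fell and 2 rose (median -0.89; 264 to 271 and 170 to 179 CPM), with the collagen genes Col3a1 (-2.88 ± 0.07) and Col1a1 (-2.04 ± 0.06) lower. Pdgfrb (-1.48 ± 0.14), Rgs5 (-0.78 ± 0.22) and Anpep (-1.06 ± 0.36) were also among the 8 that fell. The 2 that rose were Cspg4, already counted among the oligodendrocyte precursor genes, and Acta2 (0.57 ± 0.10). Tagln (0.10 ± 0.10) and Myh11 (-0.45 ± 0.45) did not pass. The part of these cell types in the value of Jag1 was not tested. Microglial markers gave 5 lower and 0 higher of 7 (median -1.53; 37.0 to 37.4 and 32.7 to 37.7 CPM), each of the 5 under 2 CPM on average in control. Choroid plexus markers were higher for 9 of 10 (median 2.57; 215 to 222 and 1379 to 1394 CPM), among them Ttr (2.81 ± 0.02), Folr1 (2.99 ± 0.15) and Sostdc1 (2.83 ± 0.14). Markers of multiciliated cells gave 3 higher and 2 lower of 9 (median -0.10; 62.9 to 63.7 and 59.99 CPM), with Gmnc higher (2.56 ± 0.22) and Foxj1 lower (-0.45 ± 0.06).

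Genes whose levels over the 4 libraries lay nearest to those of the 3 ligands were looked up among 10738 genes, by the Euclidean distance of log2 CPM centred on the control mean. This measure finds genes of like change and spread and, over 4 libraries, says nothing more. Nearest to Dll1 were the elastic fibre gene Fbln5 (distance 0.0695), Vat1l (0.12), Tmie (0.128), the growth factor gene Igf2 (0.128) and Hes5 (0.136). Nearest to Dll3 were the glycine transporter gene Slc6a9 (0.049), the axon guidance gene Draxin (0.0689), Gpr17 (0.0697), the nicotinic receptor gene Chrna4 (0.0759) and Sox8 (0.0779). Nearest to Jag1 were the small heat shock protein gene Hspb8 (0.0895), the antiviral gene Zc3hav1 (0.124), Dhrs1 (0.132), the interferon-inducible gene Bst2 (0.133) and the AP-1 subunit gene Junb (0.136).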

How the data were processed

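Each library has a deposited table of whole-number counts for every gene, not normalized, as the unequal totals show. HISAT2 2.2.1, HTSeq 0.12.4, DESeq2 1.26.0 and the mm10 build are named in the submitters' processing notes; no source used here names the annotation or the strand option. Entries for reads outside genes (25.2% to 26.1%) were left out of totals and tests. Groups and replicate numbers came from the sample titles.

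All genes were fitted together with edgeR 4.0.16 in R 4.3.3 (filterByExpr, trimmed mean of M values, quasi-likelihood F test with legacy off, Benjamini-Hochberg over 15012 genes, threshold 0.05). Standard errors were derived from the fold change and its F statistic. CPM use gene totals. Libraries of a group differed by a chi-square per gene of 1.96 and 2.2, above sampling noise. The steps were tested on simulated counts. Lengths and positions came from GENCODE M21 on GRCm38, the assembly of mm10. Alternatives covered scaling, filters, DESeq2 1.42.0, limma 3.58.1 voom, the legacy fit, a 1.2-fold threshold, a replicate block, lengths and each library left out.

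The members, gene lists and tests were chosen with earlier results of these data known. The genes named are the 9 members, Prrc2b, up to 4 genes of smallest p per list, and the 5 nearest genes of each member past the threshold with an absolute log2 fold change of at least 0.3, among genes with a mean log2 CPM of at least 3. Further genes were chosen after their values were seen. Examples are Hes1, Hey1, Id4, Nfia, Sox9, Myc, Aph1c, Tek, Pecam1, Cldn5, Neurog1, Eomes, Gadd45g and Olig2. Others are Pdgfrb, Rgs5, Anpep, Acta2, Tagln, Myh11, Dlk1 and neighbouring genes. Some genes that this rule names are not reported here.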

Additional observations from a re-analysis of the deposited data

How the results depend on the processing

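Dll1, Dll3 and Jag1 kept their direction and stayed past the threshold in all 14 alternatives, with log2 fold changes of 0.83 to 0.90, 0.68 to 0.76 and -1.33 to -1.24. No member changed sign. Of 126 member values under alternatives, 119 kept their call, 6 lost it (5 of Notch1, 1 of Notch2) and 1 gained it (Dll4). The test against a 1.2-fold change left 1039 of all genes, 7 of the pathway genes and 3 of the 9 ligands and receptors, since it asks for a larger difference. DESeq2 called 2697 of all genes and 23 pathway genes; the cause was not tested. Leaving out 1 library gave 3991 to 4285 genes of all, 28 to 34 pathway genes and 4 to 6 members; the lone library of a group is then assumed to vary like the other group. The log2 difference of the Delta to Jagged ratio was 1.40 to 1.46 without any 1 library and 1.47 without Dll4. Of 18 places in the per-length orders of the groups, 16 held with either other length and 18 without any 1 library. Replicate numbers did not pair the libraries: the deviations of the first replicates correlated at -0.0165 across genes. With the replicate block 5324 genes, 40 pathway genes and the same number of members, 5, passed. Upper quartile scaling moved the median of all genes by 0.03. Dll4 and Notch4 rest on 51 to 132 counts a library and have the widest intervals of the 9 genes; the part of depth in their missing calls was not tested.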
